A study of Arabidopsis thaliana with 4 samples.

Results

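Seedlings of Arabidopsis thaliana that carry ABR17, a pea gene of the abscisic acid-responsive PR-10 protein family, were set against wild type seedlings, both grown on 100 mM NaCl. The comparison rests on 1 single-colour microRNA array a side, chosen by genotype and NaCl from the labels, and covers 2 of the 4 arrays measured. ABR17_salt is the array of transgenic seedlings expressing the ABR17 cDNA, germinated on Murashige and Skoog medium with 100 mM NaCl, and WT_salt is the array of wild type seedlings on the same medium. ABR17_control and WT_control are the same genotypes at 0 mM NaCl, used below for a side-by-side reading only. Growth lasted 2 weeks, and a light and dark regime of 7 days is also stated, and the RNA was enriched for small RNA before labelling with Cy3. The promoter and the number of transgenic lines are not stated in the labels. The wild type arrays carry the abbreviation WS, which the labels do not spell out. According to the series design each sample had 3 biological replicates, whereas each group has 1 array. The labels do not say whether its RNA was pooled.

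MicroRNAs (miRNAs) are small RNAs, cut from hairpin transcripts by DICER-LIKE1, that guide ARGONAUTE1 to messenger RNAs of near-perfect complementarity, which are then cleaved or translated less. In seedlings they restrain transcription factors of leaf, root and phase development, auxin receptors and response factors, and enzymes of copper, sulfate and phosphate use. Several plant families, miR156, miR319, miR393 and miR398 among them, have been linked to salt or osmotic stress in earlier work.

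Each array carried Arabidopsis miRNA probes at 12 repeat spots each. Values below are spot intensities (Cy3, linear, arbitrary units) as mean ± SD of the 12 spots, and the SD describes 1 hybridisation, not seedlings. Because there was 1 array a group, no test between genotypes was possible, and precision is limited by the number of arrays. The blank spots read 86.5 ± 3.92 on ABR17_salt and 84.8 ± 5.52 on WT_salt (SD of 1120 spots each), against 111 and 231 on ABR17_control and WT_control. A miRNA was called detected where at least 50% of its spots exceeded the blank mean plus 3 blank SD, which was 98.3 on ABR17_salt and 101 on WT_salt. By this rule 59 miRNAs were detected on ABR17_salt and 54 on WT_salt, 51 of them on both. Probes for transcripts of ABR17 or of seedling marker genes are not among the probes used here, so neither the genotype nor the tissue label was checked by the arrays.

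The blank level was not matched equally well by undetected miRNA probes on the salt arrays. The 151 miRNAs detected on neither array had a median intensity of 89.3 on ABR17_salt, 2.76 above its blank mean, and of 97.2 on WT_salt, 12.3 above its blank mean. The 22 mismatched calibration probes showed a like offset, 3.74 above blank on ABR17_salt and 11.4 above blank on WT_salt. Ratios of miRNAs that lay near this level on WT_salt are therefore given with that level beside them.

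The mature sequences of the miRNAs that stood furthest apart, and of their closest relatives on the array, are printed first, as the array files give them in their target sequence column. They are written 5′ to 3′ with the seed, bases 2 to 8 and the stretch that weighs most in pairing to a target, in capitals. The first set shares the seed GACAGAA and is shown because 1 member went apart from 3 near-identical ones, and miR157a is the same sequence family with the seed moved by 1 base.

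miR156h: uGACAGAAgaaagagagcac
miR157d: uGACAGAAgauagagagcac
miR156a: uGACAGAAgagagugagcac
miR156g: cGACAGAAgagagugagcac
miR157a: uUGACAGAagauagagagcac

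Counted from 1 at the 5′ end, miR156h and miR157d differ by A11U (miR156h first), and miR156a and miR156h differ by G11A and U14A (miR156a first). The next sequences are the other miRNAs with higher readings in ABR17_salt. The members of the miR319 pair share the seed UGGACUG and differ by C20U (miR319a first), which matters because they are read by separate probes that can cross-hybridise.

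miR158a: uCCCAAAUguagacaaagca
miR824: uAGACCAUuugugagaaggga
miR319c: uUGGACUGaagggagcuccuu
miR319a: uUGGACUGaagggagcucccu
miR167c: uAAGCUGCcagcaugaucuug
miR5021: uGAGAAGAagaagaagaaaa

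The last set holds the copper-responsive miRNAs, which gave the lowest differences in the reported processing, though not under every scaling. The miR398 pair shares the seed GUGUUCU and differs by G21U (miR398b first).

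miR398b: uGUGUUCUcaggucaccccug
miR398a: uGUGUUCUcaggucaccccuu
miR408: aUGCACUGccucuucccuggc

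After normalisation, most miRNAs differed by under 0.5 (log2) between the salt arrays, and a few stood apart. That likeness is in part set by the normalisation, which gave the arrays the same distribution of values. Before it, 41 of the 51 miRNAs detected on both arrays were brighter on ABR17_salt, with a median log2 ratio of 0.19. Higher in ABR17_salt were miR156h, a regulator of SPL transcription factors of the juvenile-to-adult change, miR824, which targets the MADS-box gene AGL16 of stomatal development, miR319c, which targets TCP genes of leaf growth, and miR158a. Lower after normalisation were miR398b, which targets copper/zinc superoxide dismutases, and miR408, which targets plantacyanin and laccases.

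Of the 62 miRNAs detected on at least 1 salt array, none (0%) differed by 2-fold or more with its 12 spots free of overlap between the arrays. At a smaller size, 0.5 on the log2 scale (1.41-fold), 6 of 62 miRNAs (9.68%) stood apart, 4 higher (6.45%) and 2 lower (3.23%) in ABR17_salt. The size of 0.5 was set with the knowledge that no miRNA reached 2-fold. These differences are of normalised log2 levels after an offset of 50 was added and both arrays were given the same distribution of values. The offset shrinks true differences of dim miRNAs by construction. Giving both arrays the same distribution can shrink a difference, as among the brightest miRNAs, or enlarge it. For miR398b the difference was -0.06 with no normalisation and -0.58 as reported. So 0 miRNAs at 2-fold does not show that differences were under 2-fold. Equalising ranks can also shift a miRNA when its neighbours move. Scaling moved the median difference of the 51 miRNAs detected on both arrays, from -0.06 as reported to 0.19 with no normalisation. That median was -0.26 with the 75th percentile and 0.26 with 5S rRNA probes. The split into higher and lower depended on the scaling as well. It was 9 higher and 0 lower with no normalisation, 3 and 10 with the 75th percentile, 5 and 0 with cyclic loess, 4 and 0 with perfect-match calibration probes, 11 and 0 with 5S rRNA probes, and 17 and 2 in the authors' deposited table, which holds no repeat spots and was counted by size alone.

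**Figure D1:**
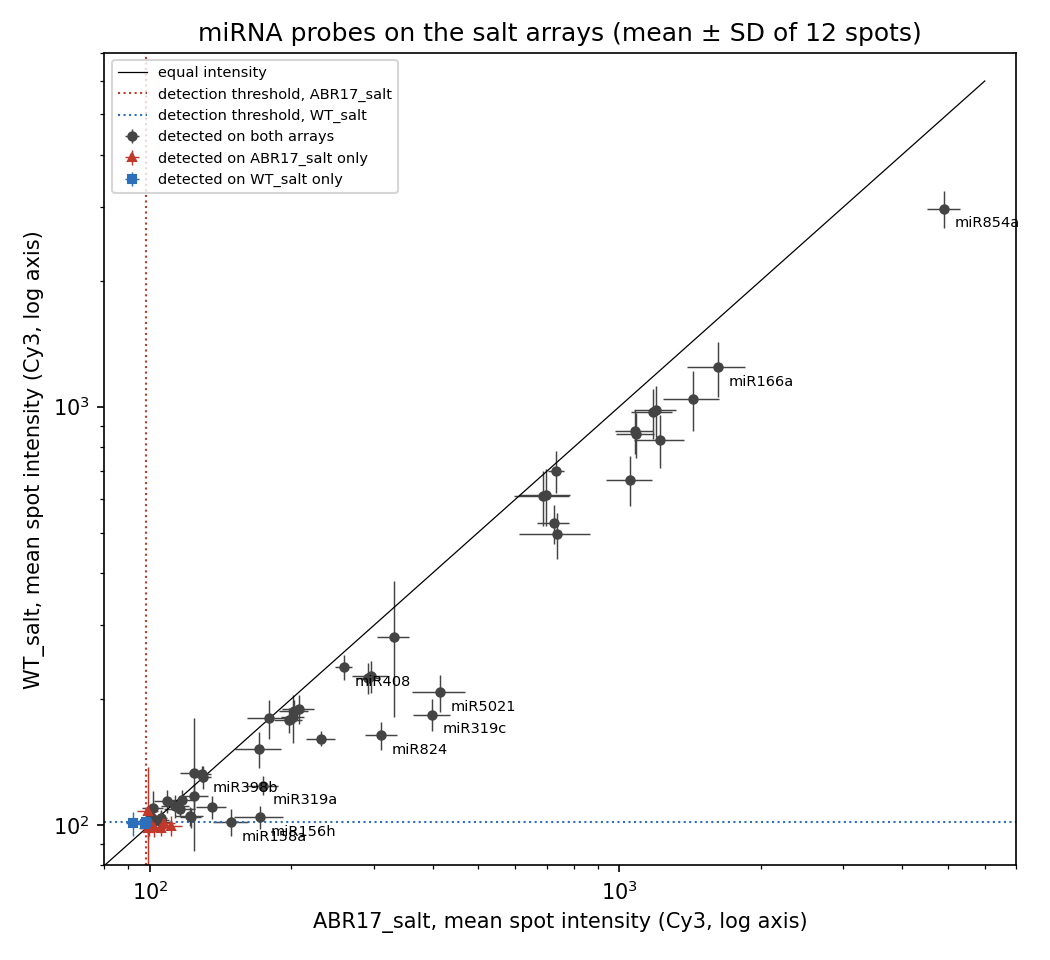
Mean spot intensity (Cy3, logarithmic axes) of the miRNAs detected on at least 1 salt array, ABR17_salt on the horizontal and WT_salt on the vertical axis, with bars of 1 SD over 12 repeat spots; dotted lines are the detection thresholds, 98.3 for ABR17_salt and 101 for WT_salt. Most points lie below the line of equal intensity (41 of the 51 miRNAs detected on both arrays), and miR5021, miR319c, miR824, miR156h and miR158a lie furthest below it among the dimmer miRNAs.

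miR156h read 171.4 ± 20.3 on ABR17_salt (spots from 138 to 196) and 104 ± 6.61 on WT_salt (93.8 to 115). Every spot of ABR17_salt was brighter than every spot of WT_salt, where the mean lay just above the threshold of 101. The normalised level was 7.37 in ABR17_salt and 6.52 in WT_salt, a log2 difference of 0.85 ± 0.07 (SE from repeat spots, as for all such errors below). Above the blank mean the intensity was 4.32-fold higher in ABR17_salt. Set against the median of undetected probes instead, miR156h stood 82.2 above it on ABR17_salt and 7.32 above it on WT_salt, a remainder too small to give a stable ratio.

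miR158a, which is known mainly from Arabidopsis and its relatives, showed the same pattern at lower intensity. It read 149 ± 12.8 on ABR17_salt (132 to 168.6) and 102 ± 7.39 on WT_salt (91.8 to 117), a difference of 0.77 ± 0.06. Its spots did not overlap between the arrays. On WT_salt its mean was 3.02 blank SD above the blank mean, at the limit of detection, whereas on ABR17_salt it was 15.9 blank SD above.

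miR824 read 311 ± 24.6 on ABR17_salt (287 to 367) and 163.8 ± 12.9 on WT_salt (144 to 184). Both arrays were well clear of their thresholds and of the undetected probes, and the spots did not overlap. The normalised difference was 0.73 ± 0.05, and the intensity above blank was 2.85-fold higher in ABR17_salt. In the authors' deposited table it was listed at 239 in ABR17_salt and 129 in WT_salt.

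miR319c read 399.2 ± 35.7 on ABR17_salt (342 to 465) and 184 ± 16.1 on WT_salt (164.9 to 212). These spots did not overlap either, and the normalised difference was 0.61 ± 0.06. Above the blank mean the ratio was 3.17, larger than that of miR824, although the normalised difference was smaller. miR319c and miR824 were set apart at 0.5 in all 15 alternative ways of processing, miR156h in 13 and miR158a in 12.

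**Figure D2:**
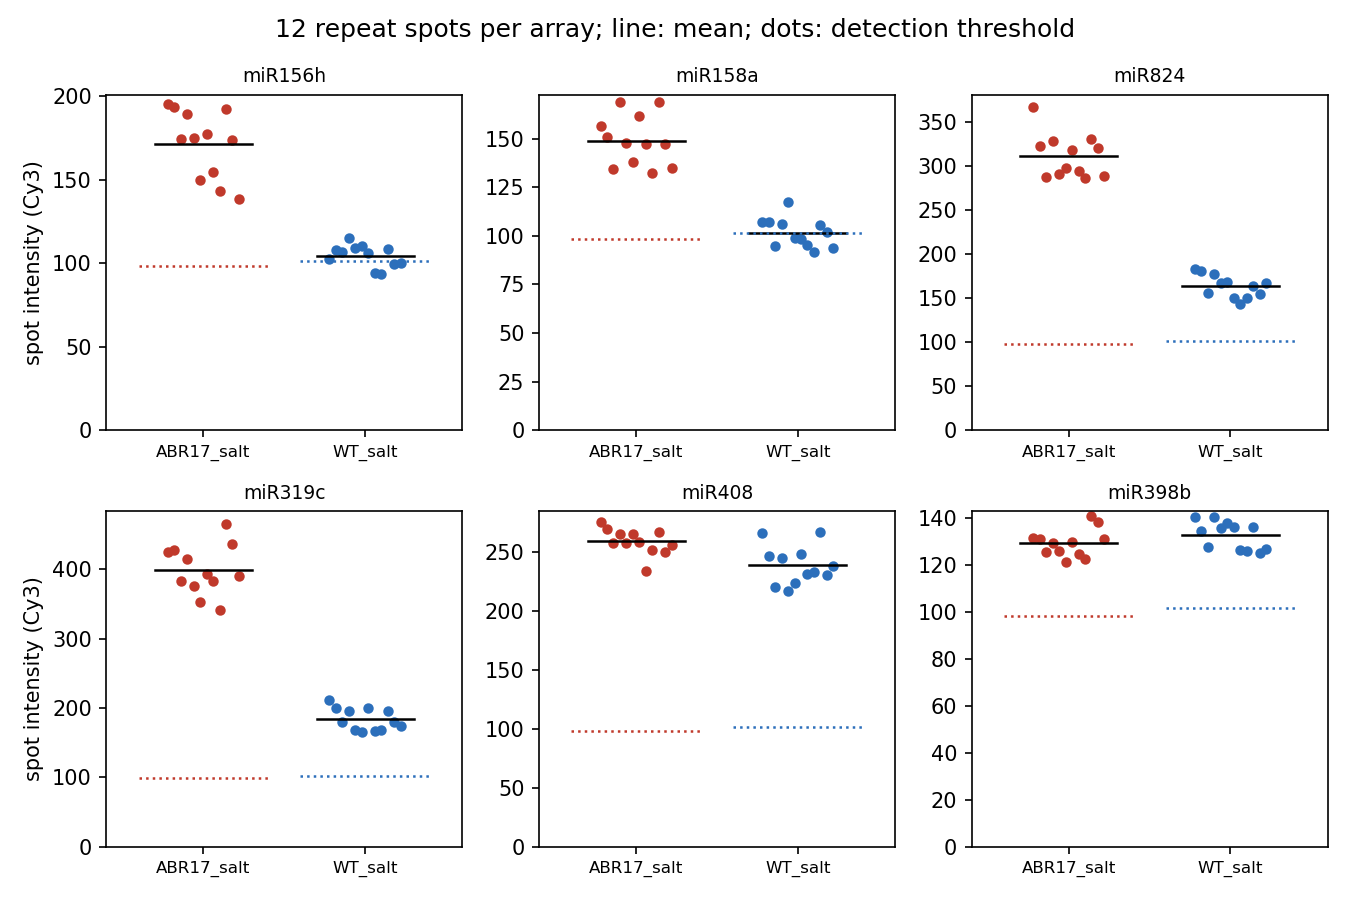
Intensities of the 12 repeat spots (Cy3, linear axes from 0) of the 6 miRNAs set apart at 0.5, with ABR17_salt in red on the left and WT_salt in blue on the right of each panel; horizontal lines are means and dotted lines detection thresholds. Spots of miR156h, miR158a, miR824 and miR319c do not overlap between the arrays, whereas those of miR408 and miR398b overlap before normalisation.

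The closest relatives of the higher miRNAs did not all follow them. Within the GACAGAA seed group, miR156h was higher in ABR17_salt (0.85) while miR157d, which differs from it by the single substitution A11U, was lower (-0.38 ± 0.09). miR157d read 688 ± 92.7 on ABR17_salt and 610 ± 90.9 on WT_salt, with overlapping spots, so its intensity was in fact slightly higher in ABR17_salt before normalisation. miR156a and miR156g were among the 6 brightest miRNAs, at 1199 ± 124 and 1178 ± 119 on ABR17_salt, against 984 ± 138 and 968 ± 132 on WT_salt. Their differences of -0.06 ± 0.07 and -0.08 ± 0.07 were no larger than about 1 SE from spots not paired by position, and miR157a gave -0.15 ± 0.09. Thus 1 of 5 probes of the miR156 and miR157 group, and the dimmest of them, stood apart.

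The miR319 pair moved together. miR319a read 174 ± 13.4 on ABR17_salt (152 to 195) and 124 ± 6.56 on WT_salt (114 to 137), a difference of 0.46 ± 0.05 that fell just short of 0.5. Its spots did not overlap, and above the blank mean it was 2.22-fold higher in ABR17_salt. How far both probes read the same RNA was not tested.

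miR167c, of a family that acts on ARF6 and ARF8 in auxin response, was next, with 232 ± 16.4 on ABR17_salt (213.2 to 260) and 160.9 ± 6.70 on WT_salt (150 to 171.3). Its difference was 0.45 ± 0.04, while miR167a (-0.11 ± 0.06) and miR167d (-0.16 ± 0.05) were slightly below 0. Both were brighter on ABR17_salt before normalisation, miR167a at 295 on ABR17_salt and 227 on WT_salt and miR167d at 291 on ABR17_salt and 225 on WT_salt. Their differences were 0.42 and 0.41 with no normalisation and 0.14 each with cyclic loess, so their sign depended on the scaling. miR173, the trigger of trans-acting siRNAs from TAS1 and TAS2, was at 0.40 ± 0.10, with 738 ± 127 on ABR17_salt and 495 ± 62.8 on WT_salt and overlapping spots. Before normalisation the overlap came from 1 low spot of miR173 on ABR17_salt at 433. Its other 11 lay between 647 and 872, and the highest on WT_salt was 580. Overlap of the normalised spots without that spot was not tested. miR319a and miR167c were the members nearest the size of 0.5 from below, and miR398a, at -0.42, was the nearest on the lower side.

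miR5021, a purine-rich sequence with repeated GAA, showed how the ranks shrink a difference. It read 415 ± 53.4 on ABR17_salt (342 to 530) and 207 ± 20.9 on WT_salt (182 to 251), and no spot overlapped. Above the blank mean it was 2.68-fold higher in ABR17_salt, and in the authors' deposited table it was listed at 357 in ABR17_salt and 194 in WT_salt. After equalising ranks over the 4 arrays the difference was 0.33 ± 0.07, and the normalised spots overlapped. It was set apart in 8 of 15 alternatives, at 1.08 with no normalisation, 1.15 with 5S rRNA scaling, 1.16 with the blank mean subtracted and no offset, and 0.89 with the undetected level subtracted instead.

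The copper-responsive miRNAs gave the lowest normalised differences in the reported processing. With no normalisation miR404 was lowest instead (-0.16). Counted from the highest of the 51 miRNAs, miR398b was then at place 46, miR398a at 42 and miR408 at 32. miR398b read 129 ± 5.90 on ABR17_salt (121 to 141) and 133 ± 5.86 on WT_salt (125 to 140), so the spots overlapped almost fully before normalisation. The normalised level was 6.79 in ABR17_salt and 7.37 in WT_salt, a difference of -0.58 ± 0.03. Its lower value thus lies in its place among the other miRNAs, rank 34 on ABR17_salt and rank 29 on WT_salt, more than in its own intensity.

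miR408 read 259 ± 10.9 on ABR17_salt (234 to 275) and 239 ± 16.2 on WT_salt (217 to 267), slightly brighter on ABR17_salt and with overlapping spots. Its rank was 21 on ABR17_salt and 16 on WT_salt, and its normalised difference was -0.54 ± 0.04. With no normalisation the difference turned to 0.13, and with 5S rRNA scaling to 0.20, while the median of the 51 miRNAs was 0.19 and 0.26 under the same settings. Relative to those medians miR408 was at -0.07 in both. miR398a, at -0.42 ± 0.04, read 129.5 ± 5.49 on ABR17_salt and 130.0 ± 8.37 on WT_salt. miR398b was set apart in 7 of 15 alternatives, miR408 in 6 and miR398a in 3, so each of these lower values stood apart in fewer alternatives than the 4 higher miRNAs. With quantile normalisation over the salt arrays alone, miR408 was set apart (-0.53) and miR398b was not.

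**Figure D3:**
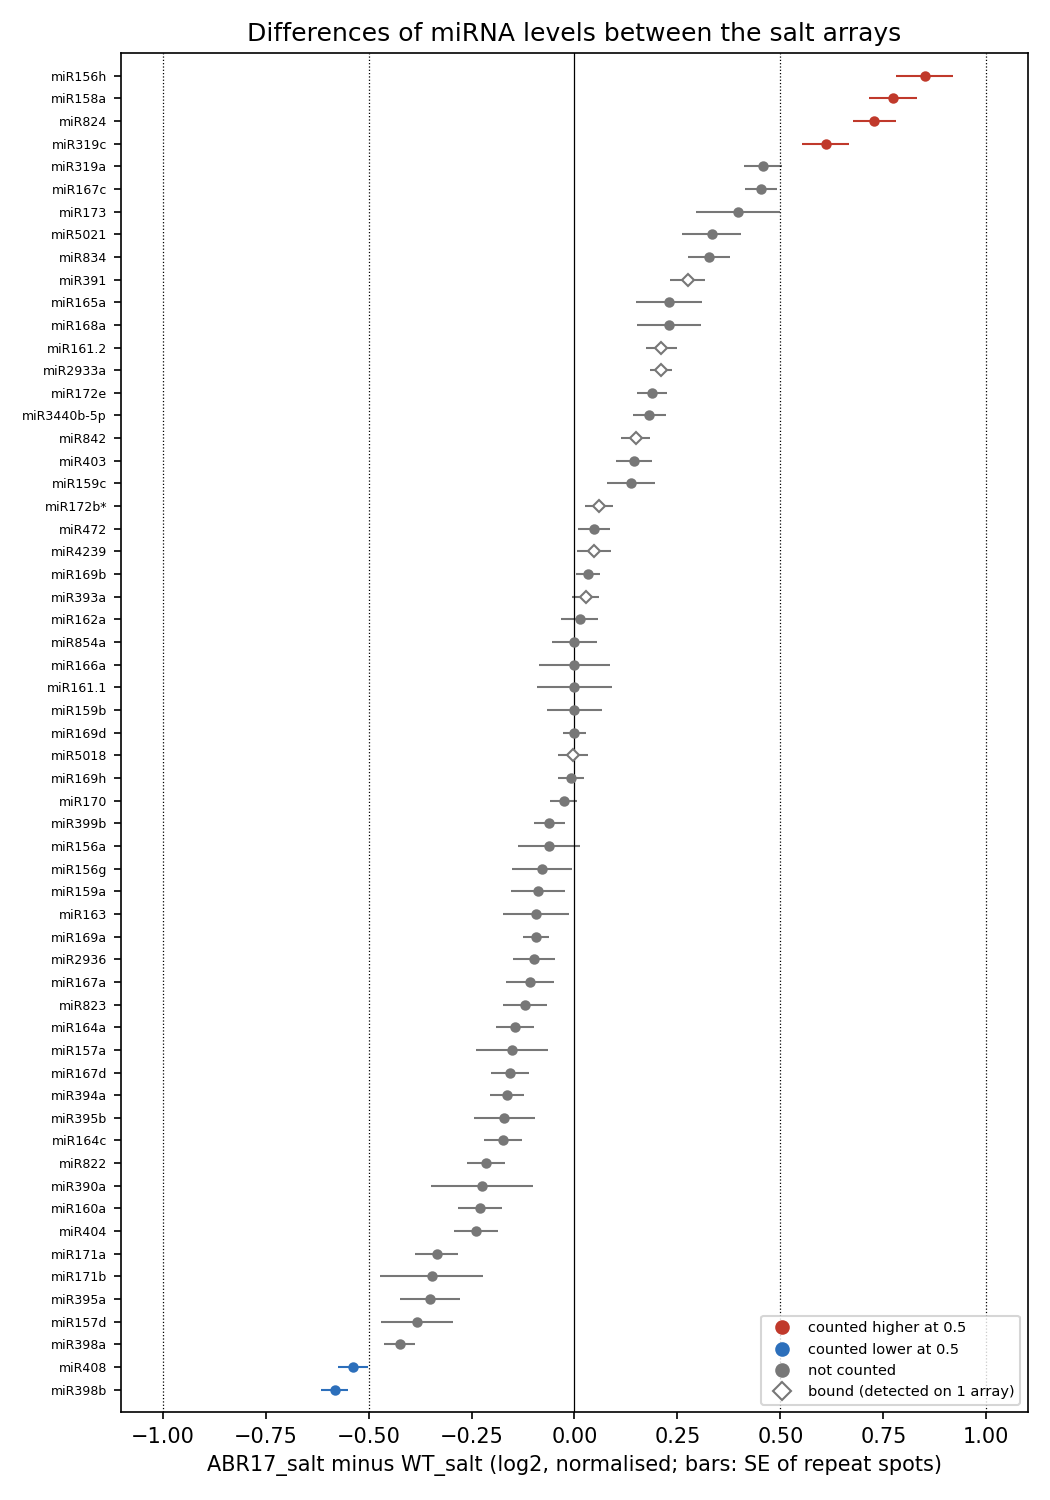
Normalised log2 difference, ABR17_salt minus WT_salt, of the 59 miRNAs with a value, ordered by size, with bars of 1 SE from the repeat spots; open diamonds are bounds for miRNAs detected on 1 array, and dotted lines mark 0.5 and 1 in either direction. miR156h (0.85), miR158a, miR824 and miR319c lie above 0.5, miR408 and miR398b (-0.58) lie below -0.5, and none reaches 1.

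The remaining miRNAs filled the range between. Among the 51 miRNAs detected on both arrays, the median difference was -0.06, with 18 above 0, 28 below and 5 at equal rank. In 45 of the 51 the difference was under 0.5 either way, and in 35 it was under 0.25. The median SE from repeat spots was 0.05. Levels on the arrays correlated at r = 0.977 across these 51 miRNAs, which share the hybridisations and are a description only. Before normalisation, 41 of 51 were brighter on ABR17_salt, with a median log2 ratio of 0.19. The perfect-match calibration probes went the same way, with 9 of 11 brighter on ABR17_salt. Their median log2 ratio was 0.21, taken from intensities above the blank mean with no offset and so not on the scale of the 0.19. Among them, Ctr04-3P was at 0.99 and Ctr01-3P at 0.85, each with its 4 spots free of overlap between the arrays. Ctr03-3P and Ctr08-3P were at -0.02. By contrast, 5 of the 6 probes for 5S rRNA were dimmer on ABR17_salt. Their log2 ratios above blank ran from -0.32 to 0.27. Their mean intensity was 46638 on ABR17_salt and 48763 on WT_salt, far above that of any miRNA. Whether the upper end of the scanner range limited these probes was not tested.

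miR854a was the brightest miRNA, at 4914 ± 404 on ABR17_salt and 2972 ± 298 on WT_salt. miR166a, which targets class III HD-ZIP genes of leaf polarity, followed with 1620 ± 227 on ABR17_salt and 1242 ± 186 on WT_salt. miR161.1, which targets pentatricopeptide repeat genes, read 1433 ± 195 on ABR17_salt and 1043 ± 170 on WT_salt. These 3 miRNAs held ranks 1 to 3 on both arrays, so their normalised difference of 0 is set by the ranks and says nothing about their amounts.

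The families were also grouped by their known targets, and the direction of most groups depended on the scaling. With no normalisation, which moved the median of all 51 miRNAs to 0.19, all 6 leaf and meristem miRNAs were above 0 (median 0.48), as were all 6 of the phase change group (0.25), all 5 of the auxin group (0.41), the 3 MYB regulators (0.35) and the 3 of the trans-acting siRNA and pentatricopeptide repeat group (0.47). With 5S rRNA scaling, where the median of all 51 was 0.26, the same 5 groups were above 0 throughout. The values that follow are those of the reported processing unless another is named. All 3 detected miRNAs of the copper group (miR398a, miR398b and miR408) were below 0, with a median of -0.54 and 2 set apart as lower, beside a median of -0.06 over all 51 and 2 lower (3.23%) of all 62. The copper median was -0.02 with no normalisation and 0.06 with 5S rRNA scaling, beside 0.19 and 0.26 over all 51. Of the leaf and meristem group, 3 of 6 were above 0 (median 0.11), led by the miR319 pair, with miR165a at 0.23 ± 0.08, and 1, miR319c, was set apart. Their median was -0.15 with the undetected level subtracted. The NAC regulators miR164a (-0.14 ± 0.05) and miR164c (-0.17 ± 0.05) were below 0.

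In the phase change group, 2 of 6 miRNAs detected on both arrays were above 0 (median -0.07): miR156h and miR172e, a regulator of AP2-like genes, at 0.19 ± 0.04. All 3 miRNAs that act on the silencing machinery were above 0, miR162a (DCL1) at 0.01 ± 0.05, miR403 (AGO2) at 0.14 ± 0.04 and miR168a (AGO1) at 0.23 ± 0.08. None of these was set apart. With 75th percentile scaling their median of 0.14 became -0.20, while that of all 51 miRNAs became -0.26. miR168a read 1054 ± 119 on ABR17_salt and 669 ± 91.6 on WT_salt, and only the normalised spots overlapped.

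The regulators of HAIRY MERISTEM genes were all below 0 (median -0.33), with miR171a at -0.33 ± 0.05, miR171b at -0.35 ± 0.13 and miR170 at -0.03 ± 0.03. None was set apart. Their median was -0.16 with the median of the repeat spots and -0.12 with cyclic loess. With 5S rRNA scaling it was 0.02, beside 0.26 over all 51. Intensities of miR171a were 208 ± 16.2 on ABR17_salt and 189 ± 15.1 on WT_salt. The sulfate and phosphate group had 3 miRNAs detected on both arrays, all below 0 (median -0.17). That median was -0.0066 with no normalisation and 0.06 with 5S rRNA scaling, beside 0.19 and 0.26 over all 51. Its lowest was miR395a, which targets ATP sulfurylases, at -0.35 ± 0.07 from 179.7 ± 18.6 on ABR17_salt and 179.7 ± 19.3 on WT_salt. Its relative miR395b, which differs by A17G (miR395a first), was at -0.17 ± 0.07, and miR399b, which targets PHO2, at -0.06 ± 0.04.

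In the auxin group 1 of 5 was above 0 (median -0.16), miR167c, and miR160a, which targets ARF10, ARF16 and ARF17, was at -0.23 ± 0.05. Cyclic loess put 4 of these 5 above 0. The MYB regulators of the miR159 family were close to 0, with miR159a at -0.09 ± 0.07, miR159b at equal rank and miR159c at 0.14 ± 0.06 (median 0.00). The miRNAs that trigger trans-acting siRNAs or target pentatricopeptide repeat genes also had a median of 0.00 over 3 detected on both arrays, with miR173 above 0 and miR390a below it at -0.22 ± 0.12. NF-YA regulators of the miR169 family were near the detection limit on both arrays, with 4 detected and a median of 0.00. That median was -0.48 with 75th percentile scaling and 0.54 with the undetected level subtracted, beside -0.26 and 0 over all 51. Neither of the 2 miR396 probes, for regulators of growth-regulating factors, was detected on either array.

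Families named in earlier work on salt gave 23 miRNAs detected on both arrays, with 9 above 0, 12 below and a median of -0.01. Of the 24 miRNAs of this list detected on at least 1 array, 3 (12.5%) were set apart as higher (miR156h, miR158a and miR319c) and 1 (4.17%) as lower (miR398b), beside 6.45% and 3.23% of all 62. The list was drawn up with earlier results of these arrays known, so these shares do not test a link to salt. The conserved families had 37 such miRNAs with a median of -0.08, and the remaining families had 14 with a median of 0.02. Further named miRNAs of these groups were miR834 at 0.33 ± 0.05, miR404 at -0.24 ± 0.05 and miR822 at -0.21 ± 0.05.

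On ABR17_salt alone, 8 miRNAs were detected, and their differences are lower bounds against their own or the dimmest detected level of WT_salt, whichever was higher. The largest bounds were 0.28 for miR391, 0.21 for miR161.2 and 0.21 for miR2933a, followed by miR842 (0.15), miR172b* (0.06), miR4239 (0.05) and miR393a (0.03), a regulator of TIR1-type auxin receptors. miR391 read 111 ± 6.18 on ABR17_salt and 99.5 ± 5.50 on WT_salt. miR172a had no bound, with 99.0 on ABR17_salt and 108 on WT_salt, or 99.2 on WT_salt without 1 bright spot. On WT_salt alone, miR5018, miR399a and miR841 were detected, between 100.5 and 102, with a bound of -0.0041 for miR5018 and none for the others. All 11 lay between 92.1 and 111 on both arrays, close to the thresholds, so being detected on 1 array does not show presence in 1 genotype.

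Besides that of miR173, single spots weighed on some WT_salt means. For miR171b 1 spot read 280 while the other 11 lay between 108 and 128, and the mean of 133 was 120 without it. miR390a, the trigger of siRNAs from TAS3, had 1 spot at 593 and the rest between 214 and 296, with a mean of 282 that was 254 without that spot. For miR172a 1 spot read 201 against 91.9 to 105 for the rest. With the median of the 12 spots in place of the mean, miR171b was at -0.26 and miR390a at -0.19.

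**Figure D4:**
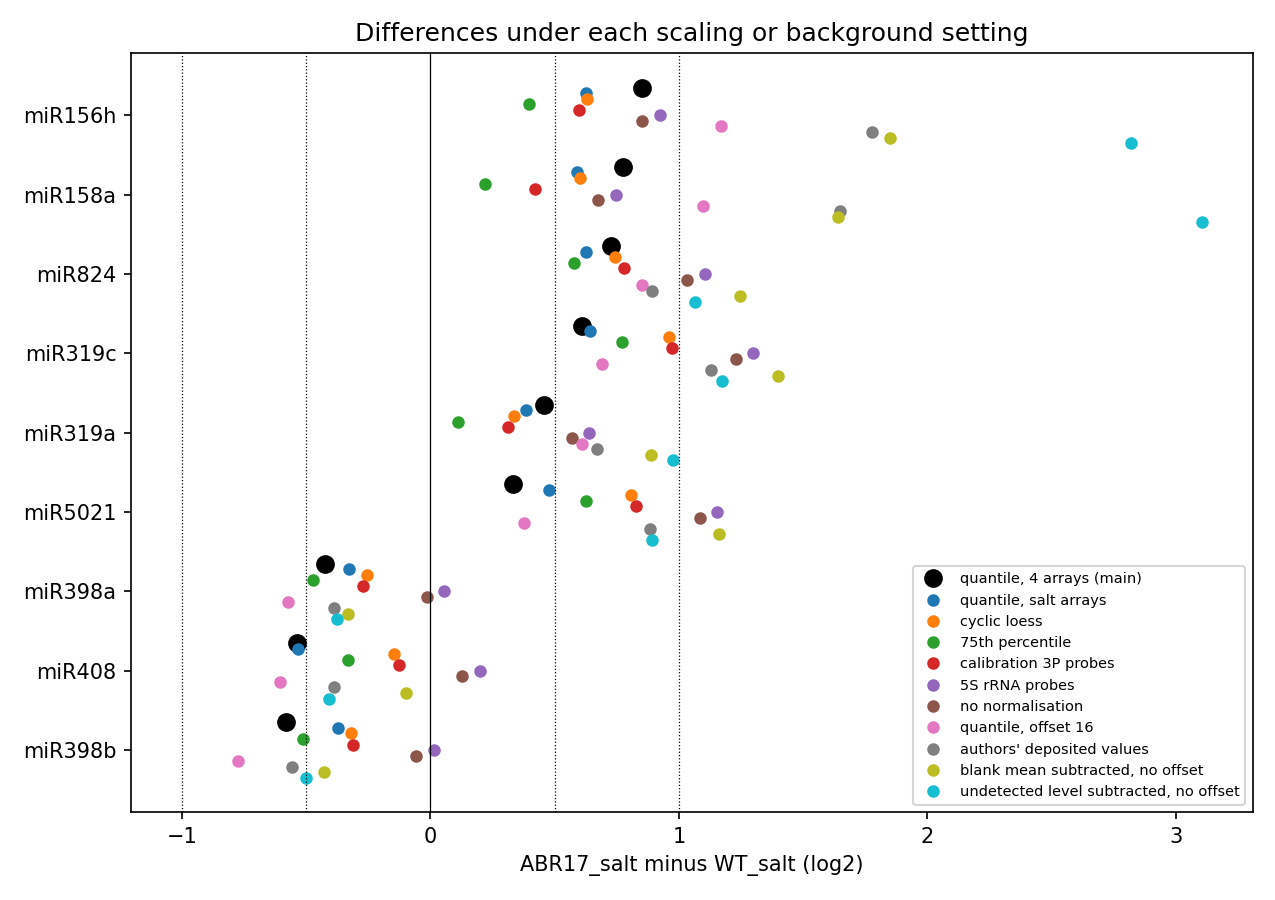
Log2 difference, ABR17_salt minus WT_salt, of 9 miRNAs under the reported processing (large black points) and 10 other scalings or background treatments (smaller coloured points); dotted lines mark 0.5 and 1 in either direction. miR156h, miR158a, miR824, miR319c, miR319a and miR5021 stay above 0 in each, whereas miR408, miR398a and miR398b cross 0 with 5S rRNA scaling, and miR408 also with no normalisation.

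The same genotypes without salt were read beside these values. That pair shares no array with the salt pair, but all 4 arrays were normalised together, and the blank level of WT_control (231) stood far above that of the other arrays. Between ABR17_control and WT_control, 8 of 39 miRNAs (20.5%) were set apart at 0.5, 5 higher (12.8%) and 3 lower (7.69%). At 2-fold there were 4 (10.3%), 2 in each direction (5.13% each). The 4 miRNAs that were higher under salt were lower on ABR17_control than on WT_control. miR824 read 163.7 on ABR17_control and 781 on WT_control, a normalised difference of -0.56 ± 0.05 with separate spots, beside 0.73 in the salt pair. For miR319c the intensities were 236 on ABR17_control and 930 on WT_control, a difference of -0.71 ± 0.08 with overlapping normalised spots.

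miR156h was not detected on ABR17_control (105) but was on WT_control (937), and its difference was -1.83 ± 0.09 or lower. miR158a was also below the limit on ABR17_control, with a bound of -0.40 ± 0.08. Of the lower miRNAs, miR398b was at -0.66 ± 0.14 without salt, on the same side as under salt, and miR408 was at 0.10 ± 0.05. The difference between the pairs has no replicate check, and the part of the high WT_control background in it was not tested. Before normalisation, some calibration probes also read higher on ABR17_salt and lower on ABR17_control than on the wild type array of the same pair. Ctr01-3P read 1128 and 661 under salt (ABR17_salt first) and 579 and 2023 without salt (ABR17_control first). Ctr03-3P and Ctr08-3P were slightly dimmer on ABR17_salt, and Ctr06-3P was brighter on ABR17_control. What part of the miRNA differences this pattern makes up was not tested.

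**Figure D5:**
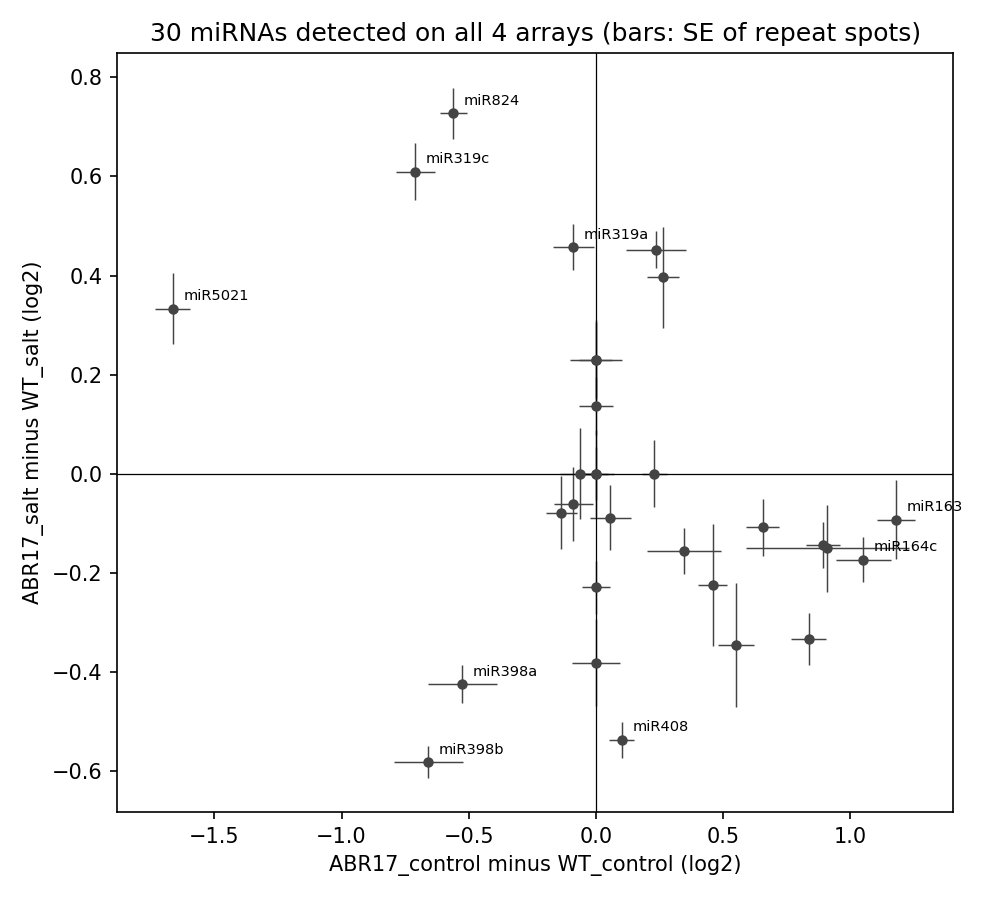
Normalised log2 differences between ABR17 and wild type seedlings under salt (vertical axis, ABR17_salt minus WT_salt) and without salt (horizontal axis, ABR17_control minus WT_control) for the 30 miRNAs detected on all 4 arrays, with bars of 1 SE from the repeat spots. miR824, miR319c and miR5021 lie above 0 under salt and below 0 without salt, and miR398a and miR398b lie below 0 in both.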

How the data were processed

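Each deposited mean spot density is, per the file headers, a linear Cy3 intensity from which no background had been taken. It was read from 3968 spots an array (2556 miRNA, 1120 blank, 268 calibration, 24 for 5S rRNA). The authors also deposited 1 processed intensity per miRNA and array, whose scaling and background method are not stated in the labels or headers. Those values correlated with the blank-subtracted spot means at r = 0.999 for ABR17_salt and 0.993 for WT_salt over detected miRNAs, with column medians of 9.38 and 10.32, so they are linear and uncentred, while their scale between arrays stays unknown.

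Spots were corrected with normexp in limma 3.58.1 (R 4.3.3, offset 50), transformed to log2, averaged over the 12 spots and quantile normalised over all miRNA probes of the 4 arrays. Errors are SD or SE of repeat spots, taken as independent, and neither the SE nor the overlap rule pairs spots by position. Intensities varied with position alike on both salt arrays. For miR156a the spot at row 8, column 2 read 1356 on ABR17_salt and 1219 on WT_salt. Its spot at row 68, column 22 read 983 on ABR17_salt and 779 on WT_salt. A miRNA was set apart where it was detected on at least 1 array, differed by at least 0.5 or 1 (log2), and had no overlap of normalised spots. With detection on 1 array, the other was taken at its own or the lowest detected level, whichever was higher, and kept only if the detected array was brighter. A comparison of 1 array with 1 array has no p-value.

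miRNAs were named where they were among the 12 highest or 12 lowest differences of those detected on both arrays, were detected on only 1, were set apart, were among the 5 brightest, or belonged to a listed family. The members, lists, sizes and the detection rule were chosen with earlier results of these data known. A total of 13 alternatives were planned (background, offset, scaling, repeat-spot summary, detection, and the authors' values), and 2 were added after seeing the data. The processing was tested on simulated arrays, where it recovered changes only in shrunken form and set some unchanged miRNAs apart at 0.5; the requirements of that test were loosened after it first failed. Locus tags in the tables come from RefSeq, and the sources used here name no genome build.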

Additional observations from a re-analysis of the deposited data

Results flagged for a closer look

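The genotype difference of 2 miRNAs was at least 0.5 (log2) in opposite directions in the salt and no-salt pairs, with all 12 spots of one array beyond those of the other in each pair. For miR156h the salt difference exceeded the no-salt difference by at least 2.68 (log2, a bound because it was not detected on ABR17_control). For miR824 the gap was 1.29. miR158a also had opposite signs and separate spots in each pair, at 0.77 under salt and a bound of -0.40, under 0.5 in size, without it. No gap was tested, since each group has 1 array, and the blank mean of WT_control was 231 while that of the other 3 arrays lay between 84.8 and 111.

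Outside the miRNA probes, 2 of the 18 calibration probes detected on both salt arrays were at least 2-fold brighter above blank on ABR17_salt, with separate spots. PUC2MM read 4019 ± 430 on ABR17_salt and 1844 ± 298 on WT_salt, a ratio of 2.24. PUC2PM-20B read 484 ± 170 on ABR17_salt and 113.5 ± 8.28 on WT_salt, a ratio of 13.9. Without salt both went the other way. PUC2MM read 1176 on ABR17_control and 11421 on WT_control, and PUC2PM-20B read 115 on ABR17_control and 3664 on WT_control. What these probes were given as input is not stated in the sources used here.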

How the results depend on the processing

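No paired analysis was possible because each group has 1 array. The count at 2-fold, 0 as reported, was also 0 in 9 of 15 alternatives. All miRNAs counted at 2-fold in the other 6 alternatives were higher in ABR17_salt: 2 with offset 16, 3 with no normalisation, 3 with 5S rRNA scaling, 6 in the authors' deposited values, counted by size alone, and, in 2 alternatives chosen after seeing the data, 5 with subtraction of the blank mean and 4 with subtraction of the undetected miRNA level, both with no offset and centring on the median. In that last setting miR158a was at 3.10 and miR156h at 2.82, both from remainders near 0 on WT_salt, and miR319c was at 1.17 and miR824 at 1.07. The count at 0.5, 6 as reported, was 13 with 75th percentile scaling, 11 with 5S rRNA scaling and 19 in the deposited values, and within 1.5 times in the other 12. A threshold of 6 blank SD left 32 miRNAs detected on both arrays. Of the 6 miRNAs set apart, miR408 reversed to 0.13 with no normalisation and to 0.20 with 5S rRNA scaling, and miR398b to 0.013 with 5S rRNA scaling. The cause was not tested. Ranges over the alternatives were 0.37 to 2.82 for miR156h, 0.08 to 3.10 for miR158a, 0.58 to 1.25 for miR824 and 0.54 to 1.40 for miR319c. The low ends for miR156h and miR158a are lower bounds, since neither was detected on WT_salt at 6 blank SD. Their lowest measured differences were 0.40 for miR156h and 0.22 for miR158a, both with 75th percentile scaling. Of the 53 miRNAs more than 0.005 from 0, 34 took the other sign in at least 1 alternative. Signal over background limited miR156h and miR158a on WT_salt, and with 1 array a group no spread over seedlings was measured.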
